A study of Mus musculus with 35 samples.

Results

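MMS-treated mouse embryonic fibroblasts (MEFs) were compared with control MEFs 24 h after the medium was changed. The 8 arrays of this comparison, 4 of MMS-treated and 4 of control cells, were taken by their titles from the 35 arrays of the series, and all genes measured on them were considered. MEFs are primary fibroblasts, and all cells here came from C57BL6/J embryos of day 15.5 and had been grown for 2 passages at 5% O2 in medium with 10% serum, as the labels give it. The study's methods name a younger age and more passages, and state that head and liver were removed, so that the cultures came from the rest of the body. Cells of both groups received fresh medium during exponential growth. That medium contained methyl methanesulfonate (MMS) at 40 µg/mL for the treated cells and no MMS for the controls. No source says that the replicates came from separate cultures or embryos, so the p-values measure only how far the samples scatter. That scatter was estimated for each gene over all 35 arrays in 9 groups. It can therefore be smaller or larger than the scatter of the 8 arrays at 24 h. Precision is also limited by having 4 arrays per group.

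At 24 h the GSH transferase Gsta4 was 24.9-fold and the collagenase Mmp13 at least 11.7-fold higher after MMS than in controls. All 35 proteasome genes tested were higher, each by less than 2-fold, against 25.0% of all genes. In the other direction 20 of 26 collagen chains, 14 of 15 genes around insulin-like growth factor (IGF) and 19 of 20 genes of sterol synthesis were lower, against 19.4% of all genes. The connexin Gjb2 fell furthest, 23.4-fold.

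MMS is an alkylating agent that adds methyl groups to DNA, RNA, proteins and thiols such as glutathione (GSH), the main small thiol of the cell. Methylated bases in DNA are removed by base excision repair or by direct reversal, and lesions that block a replication fork activate checkpoint kinases and the transcription factor p53. Electrophiles that consume GSH also release the transcription factor NRF2 from its inhibitor KEAP1, and NRF2 then raises genes of GSH synthesis, conjugation and drug efflux. Damaged proteins call on heat shock factors and the proteasome, and stress in the endoplasmic reticulum (ER) or a lack of amino acids raises the translation of the transcription factor ATF4. Fibroblasts are the main producers of collagen and other matrix, and they carry contractile proteins under the control of serum response factor (SRF).

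Values are log2 signals, and the medians of the 8 arrays lay between 5.02 and 5.08. Between arrays of one group the correlation was 0.9958 to 0.9968 for the controls and up to 0.9973 among replicates 1, 2 and 4 of the MMS-treated cells, but 0.9617 to 0.9642 for MMS replicate 3. The mean of 32 transcripts of intestinal epithelium was 9.23 in MMS replicate 3 and 4.50 to 4.56 in the other MMS arrays, and 29 of these 32 exceeded the mean of those arrays by more than 1 log2 unit. In control replicate 4 the mean was 5.38, against 4.59 to 4.64 in the other controls, and 8 of the 32 lay that far above them. Every gene was therefore tested again without MMS replicate 3. The difference between the 3' and 5' probe sets for Gapdh, a sign of RNA integrity, was -0.06 to -0.13 in control and -0.14 to -0.24 in MMS arrays, and for actin it was 0.18 to 0.27 and 0.26 to 0.33. The part of these offsets in the results was not tested.

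The defining markers of the labelled cell type were present, with vimentin at 14.10 to 14.32, fibronectin at 14.02 to 14.41 and Col1a1 at 11.69 to 14.13 over the 8 arrays, where a log2 signal of 4.40 was the limit for low values. The mean of 15 fibroblast markers was lower after MMS, at 9.89 to 10.14 against 10.85 to 10.94 in the controls. Of these markers 14 were lower and 1, the PDGF receptor Pdgfra, was higher. Fewer cells of a type and less RNA per cell cannot be told apart in such bulk samples. The mean of 14 macrophage markers was 5.07 to 5.63 after MMS and 4.68 to 4.78 in the controls. Of the 14, 3 were called higher and none lower. These were Cd68, Csf1r, at 5.81 to 5.89 in controls and 7.65 to 7.96 after MMS, and Cd14, at 5.43 to 5.67 and 8.09 to 8.42. The pan-leukocyte gene Ptprc lay between 3.38 and 3.55 in MMS replicates 1, 2 and 4 and at 5.58 in replicate 3, and C1qa and Tyrobp stayed between 3.51 and 4.60 in all MMS arrays, within or below the range of the controls for all but Ptprc in replicate 3.

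MMS changed a large part of the measured transcriptome at 24 h. Of 14135 genes tested, 3540 were higher (25.0%) and 2745 lower (19.4%) after MMS at an adjusted p under 0.05 (limma, Benjamini-Hochberg over all genes), together 44.5%. Most changes were small, with the 5th and 95th percentile of the log2 fold change at -0.77 and 0.80 and the median at 0.01. A change of 2-fold or more was seen in 318 higher (2.25%) and 420 lower genes (2.97%), and one of 4-fold or more in 66 and 60. For 3359 genes (23.8%) all MMS arrays lay above all control arrays, and for 2673 (18.9%) all lay below them. Without MMS replicate 3 there were 3497 higher and 2586 lower genes, and 5783 of the 6285 calls were made in both fits in the same direction. The balance between directions depended on the scale. When the median of the tested genes was set equal on all arrays, which moved all log2 fold changes by -0.08, 2736 genes were higher and 3376 lower, so that the higher share of the calls was 44.8% in place of 56.3%.

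The 15 largest rises included a matrix protease, GSH transferases and other detoxification enzymes and surface receptors. These genes were named because they had the largest log2 fold change among genes called with and without MMS replicate 3 and without overlap of the groups, so their size is a description. Where the mean of one group lay below the limit for low values of 4.40, the fold is given as at least the difference from that limit. This holds for Mmp13, Gsta2 and Lce1d among the rises and for Cpa6 among the falls, whose place in the order rests on the fitted values. Mmp13, a collagenase that cleaves fibrillar collagen, had log2 signals of 3.09, 3.21, 3.23 and 3.37 in control replicates 1 to 4 and 7.99, 8.03, 7.82 and 7.94 in MMS replicates 1 to 4. The control arrays sat below the limit and the MMS arrays close together, a difference of at least 11.7-fold (fitted log2 4.72, standard error (SE) 0.22, adjusted p = 5.9e-17). Gsta4, a GSH transferase that conjugates reactive lipid aldehydes, measured 7.0, 7.45, 7.17 and 7.35 in controls and 11.90, 11.90, 11.68 and 12.03 after MMS. It was 24.9-fold higher (log2 SE 0.28, adjusted p = 2.6e-14), and the related Gsta2, at 3.73, 3.45, 3.75 and 3.29 in controls and 6.59, 7.23, 6.96 and 7.38 after MMS, was at least 6.22-fold higher. Probes for members of this family can share signal, as can those for the late cornified envelope genes Lce1f and Lce1d, so the change cannot be assigned to a single member with certainty.

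Lce1f, which belongs to a keratinocyte gene cluster, stood at 4.68, 4.31, 4.81 and 4.85 in controls and at 8.67, 8.81, 8.75 and 8.61 after MMS (16.5-fold, adjusted p = 1.2e-13), and a dimmer probe set of it gave a log2 difference of 1.24. Tnfrsf18, the receptor GITR known from regulatory T cells, measured 4.2, 4.49, 4.57 and 4.52 and 8.20, 8.25, 7.81 and 7.97 in the same order. Neither gene had an MMS array near a control array, and Tnfrsf18 was 12.2-fold higher (SE 0.14, adjusted p = 1.3e-18). Blvrb, a biliverdin reductase of heme breakdown, gave 7.42, 7.28, 7.02 and 7.29 in controls and 10.97, 10.95, 10.55 and 10.97 after MMS. MMS replicate 3 was the lowest MMS array for Blvrb, and the fold was again 12.2 (adjusted p = 3.0e-17). Cd68, a lysosomal membrane glycoprotein used as a macrophage marker, was 4.93, 5.00, 4.94 and 4.94 in controls and 8.49, 8.60, 8.08 and 8.43 after MMS. The controls hardly differed among themselves, and the rise was 10.9-fold (SE 0.15, adjusted p = 1.8e-17), while most other macrophage markers stayed at control level as given above.

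Procr, the endothelial protein C receptor, rose from 8.28, 8.35, 8.28 and 8.42 to 11.77, 11.84, 11.65 and 11.77 (10.8-fold, SE 0.10, adjusted p = 4.1e-21). Nqo1, the quinone reductase that is a classic NRF2 target, went from 6.89, 6.87, 6.97 and 6.88 to 10.41, 10.42, 10.19 and 10.31, 10.8-fold with an adjusted p of 2.3e-15. Slc7a11, which imports cystine for GSH synthesis, went from 5.29, 5.15, 5.17 and 5.01 to 8.23, 7.91, 8.21 and 8.14 (7.81-fold, adjusted p = 1.1e-18). For all 3 genes the MMS arrays formed a group of their own. The other rises of this size were 1700007K13Rik, named by its clone, at 10.7-fold, the FGF-binding protein Fgfbp3 at 9.75-fold, Depdc7 at 8.38-fold, Lce1d at 4.02-fold or more and the small GTPase Diras2 at 8.24-fold, with adjusted p-values of at most 1.3e-09. A dimmer probe set of Diras2 gave 0.43 on the log2 scale and one of Slc7a11 2.27. MMS replicate 3 was the lowest MMS array for 11 of the 15, and leaving it out moved Lce1d most, from a fitted log2 of 3.05 to 3.25.

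The 15 largest falls were led by Gjb2. This gene, which encodes a gap junction protein, measured 11.09, 11.09, 10.90 and 10.95 in controls and 6.04, 6.16, 7.45 and 6.17 after MMS. MMS replicate 3 lay more than 1 log2 unit above the other MMS arrays and still far below the controls. Gjb2 was 23.4-fold lower (log2 -4.55, SE 0.18, adjusted p = 1.3e-18) and fell by 4.88 on the log2 scale without that array. Aspn, a small proteoglycan that binds collagen and TGF-beta, was 9.28, 9.78, 9.57 and 9.47 in controls and 5.86, 5.58, 7.65 and 5.67 after MMS, 10.1-fold lower (adjusted p = 1.1e-11). Col3a1, the chain of type III collagen, was 13.32, 13.27, 13.20 and 13.15 and 9.69, 9.66, 11.33 and 9.90, 8.53-fold lower (SE 0.19, adjusted p = 2.7e-14), with a log2 difference of -4.30 for a dimmer probe set. Replicate 3 stood about midway between the groups for both genes.

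Igfbp5, which binds insulin-like growth factors, fell from 8.44, 8.46, 8.23 and 8.22 in controls to 4.94, 5.22, 5.94 and 5.18 (8.09-fold, adjusted p = 1.6e-17). Another probe set of Igfbp5 gave a log2 difference of -0.38 with an adjusted p of 0.13. Slc1a6, a glutamate transporter best known from cerebellum, fell from 9.20, 8.99, 8.86 and 9.0 to 5.91, 5.65, 6.78 and 5.70 (8.02-fold, adjusted p = 8.3e-15). Cpa6, a secreted carboxypeptidase, fell from 7.13, 7.19, 7.11 and 7.19 to 4.22, 3.60, 5.01 and 3.85 (at least 6.06-fold, adjusted p = 5.8e-14). Its MMS arrays were spread widely and none came near a control. Chac1, a GSH-degrading enzyme that ATF4 raises, went from 9.19, 8.81, 8.96 and 8.91 to 6.01, 6.13, 6.83 and 5.94 (6.69-fold, adjusted p = 2.3e-16). Mylk, the kinase of myosin light chain, went from 8.62, 8.68, 8.68 and 8.63 to 5.30, 5.05, 7.74 and 5.66. Its replicate 3 was less than 1 log2 unit below the controls and the other MMS arrays were far lower, so that Mylk fell by 2.72 on the log2 scale with that array (adjusted p = 7.9e-09) and by 3.32 without it (adjusted p = 4.4e-18). A dimmer Mylk probe set gave -0.96.

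The rest of the 15 were the sarcomere protein Myom1 (7.88-fold lower), the cGMP-dependent kinase Prkg1 (7.47-fold), delta-catenin Ctnnd2 (7.1-fold), the matricellular protein Ccn5 (7.03-fold), monoglyceride lipase Mgll (6.98-fold), the fibronectin-domain protein Fndc1 (6.9-fold) and the mitochondrial folate enzyme Aldh1l2 (6.76-fold), each with an adjusted p of at most 4.0e-11. Of the other probe sets, 1 for Mgll and 1 for Fndc1 near background gave log2 differences of -0.07 and -0.25 and were not called, and a dim one for Ctnnd2 gave -0.36 and was called (adjusted p = 0.029). For all 15, MMS replicate 3 was the MMS array closest to the controls. The same array was the highest MMS array in 69.5% of the 420 genes at least 2-fold lower, against 29.1% of all genes tested, and its median log2 difference from the controls over those 420 genes was -1.22, against -1.43 for the other MMS arrays. Among the 318 genes at least 2-fold higher these medians were 1.36 and 1.39.

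**Figure D1:**
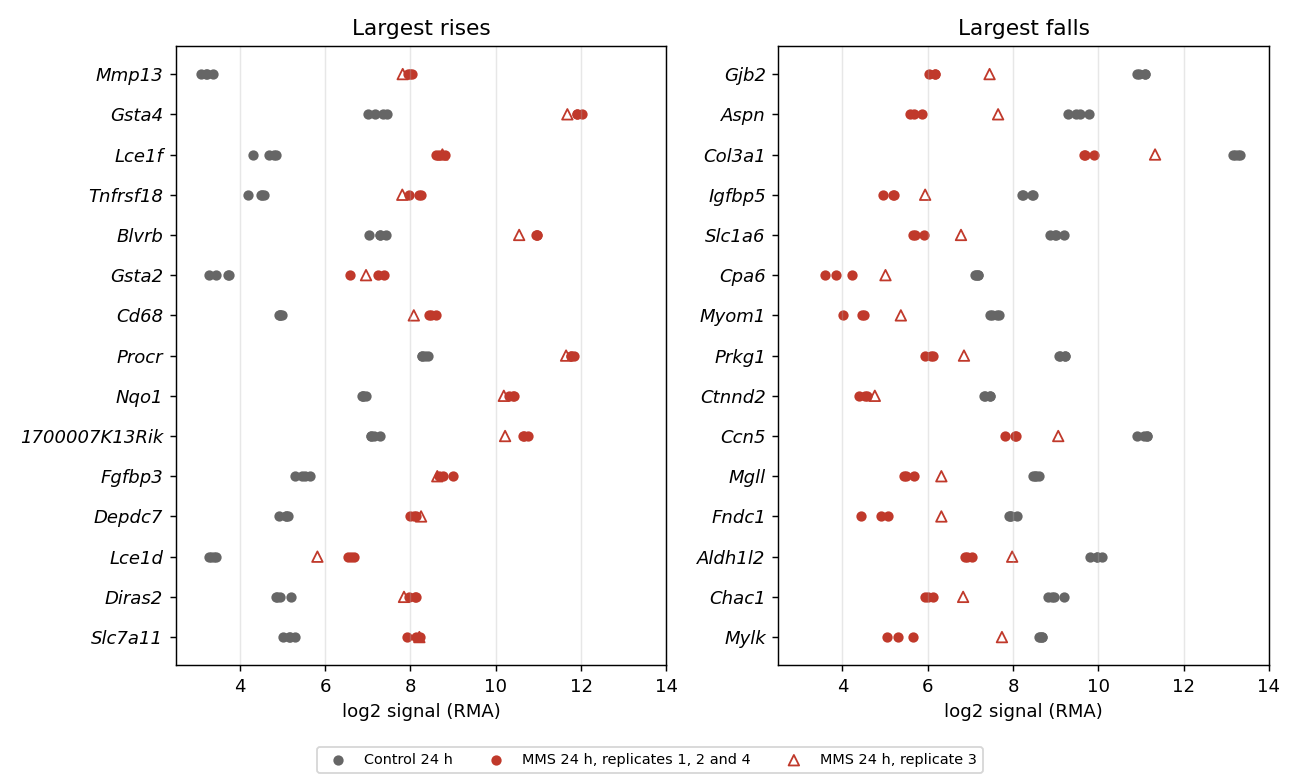
Log2 signal (x axis) of the 15 genes that rose furthest and of the 15 that fell furthest at 24 h, with 1 point per array, grey for control, filled red for MMS replicates 1, 2 and 4, and an open triangle for MMS replicate 3. No MMS array overlaps a control array, and the triangle lies nearest the controls in all 15 falls, as for Mylk at 7.74 against 5.05 to 5.66 in the other MMS arrays.

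The course of these changes was read from the other time points for the 5 largest rises and the 5 largest falls. The differences between MMS effects at 24 h and at 8 or 72 h made 20 tests, of which 18 passed. For Mmp13 the controls themselves moved, from a log2 mean of 3.44 at 1 h to 6.13 at 8 h and back to 3.23 at 24 h, and MMS-treated cells were at 6.70 at 8 h and at 7.94 at 24 h. The effect of MMS on Mmp13 was thus 4.15 log2 units larger at 24 h than at 8 h (SE 0.31, adjusted p = 4.0e-12), and 5.23 larger than at 72 h (adjusted p = 3.0e-13), as fitted with the controls at 24 h below the limit for low values. Tnfrsf18 had means between 4.38 and 4.44 in both groups at 8 h, then 8.06 after MMS at 24 h and 5.56 at 72 h. Its effect exceeded that at 8 h by 3.67 (SE 0.20, adjusted p = 3.7e-15) and that at 72 h by 2.72 (adjusted p = 1.8e-11). The effect at 24 h exceeded that at 8 h by 2.20 for Gsta4 (adjusted p = 4.1e-05) and by 1.11 for Blvrb (adjusted p = 2.0e-04). Their controls were lower at 24 h, going from 8.13 to 7.24 for Gsta4 and from 8.57 to 7.25 for Blvrb. After MMS, Gsta4 went from 10.56 at 8 h to 11.88 at 24 h, whereas Blvrb did not rise further, at 11.07 and 10.86. For Lce1f the effect at 24 h was 0.88 above that at 8 h, which did not pass (SE 0.37, adjusted p = 0.055) but did without the 4 arrays of the series that held intestinal transcripts (0.87, adjusted p = 7.8e-04), and its controls also stood at 8.37 at 8 h and at 4.66 at 24 h.

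Of the falls, those of Gjb2, Aspn, Col3a1 and Slc1a6 were larger at 24 h than at 8 h and at 72 h. The controls moved here too, from 9.45 at 8 h to 11.01 at 24 h for Gjb2, from 5.86 to 9.53 for Aspn, from 11.37 to 13.24 for Col3a1 and from 6.60 to 9.01 for Slc1a6. The means after MMS at 8 h and 24 h were 7.15 and 6.45 for Gjb2, 5.28 and 6.19 for Aspn, 10.16 and 10.14 for Col3a1 and 5.90 and 6.01 for Slc1a6. For each of these genes, Gjb2 among them, the controls differed more between these times than the MMS-treated cells. The effect on Gjb2 was -2.25 relative to that at 8 h (SE 0.25, adjusted p = 1.2e-08) and -3.07 relative to that at 72 h (adjusted p = 1.5e-10). For Col3a1, which was back at a log2 mean of 13.73 after MMS and 14.20 in controls at 72 h, these values were -1.88 (adjusted p = 1.0e-06) and -2.62 (adjusted p = 1.3e-08). For Igfbp5 the effect at 24 h was -1.73 relative to that at 8 h (adjusted p = 7.2e-09), and the effect differed from that at 72 h by 0.26, which did not pass (SE 0.19, adjusted p = 0.37). The 8 h arrays of both groups held macrophage transcripts, with marker means of 8.54 to 8.67 in controls and 7.90 to 8.11 after MMS against 4.68 to 5.63 at 24 h, and the part of these transcripts in the differences from 8 h was not tested. At 72 h the mean of the intestinal markers reached 6.12 in 1 MMS array, and the differences that passed also did so without those 4 arrays.

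**Figure D2:**
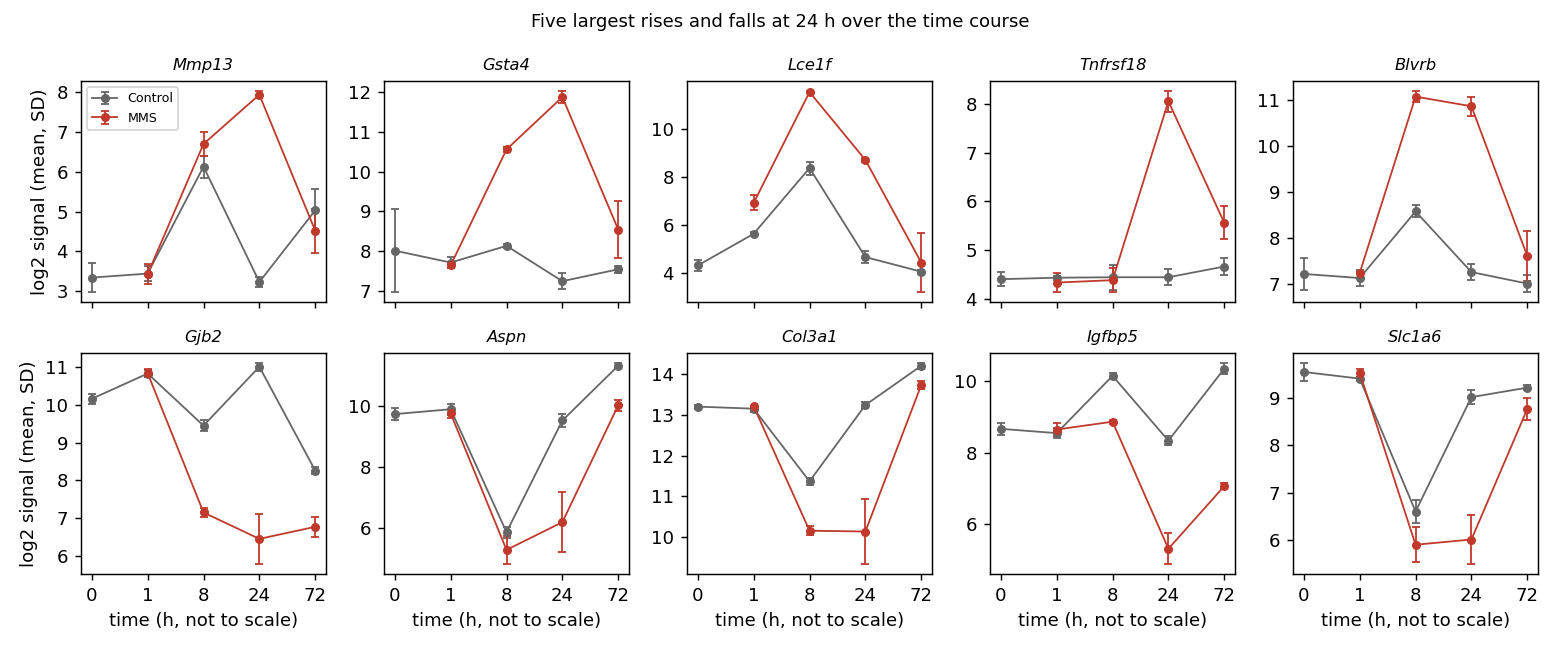
Mean log2 signal with its SD (y axis) over time in h (x axis, not to scale) for the 5 largest rises and 5 largest falls at 24 h, grey for control and red for MMS, 4 arrays per point and 3 for MMS at 72 h. Tnfrsf18 is at control level at 8 h and at 8.06 at 24 h, and Gjb2 falls to 6.45 at 24 h while its controls stand at 11.01.

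Pathways were described by lists of their genes. For each list the number of members called in each direction is given and can be read against the 25.0% higher and 19.4% lower among all genes and against their median log2 fold change of 0.01. The lists share some members, and they were not tested as sets. Values are those of a gene's brightest probe set. Of 187 other probe sets above the limit for low values, which 108 of the genes named have, 26 fell on the other side of the threshold and 4 had the opposite sign. For every gene named below, the control and MMS arrays did not overlap, except for Nfe2l1, Mgmt and Cobl. Over all genes tested this held for 23.8% in the higher and 18.9% in the lower direction. Most genes named were chosen for a small adjusted p, which in large part fixes this separation, so it says nothing about the lists.

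**Figure D3:**
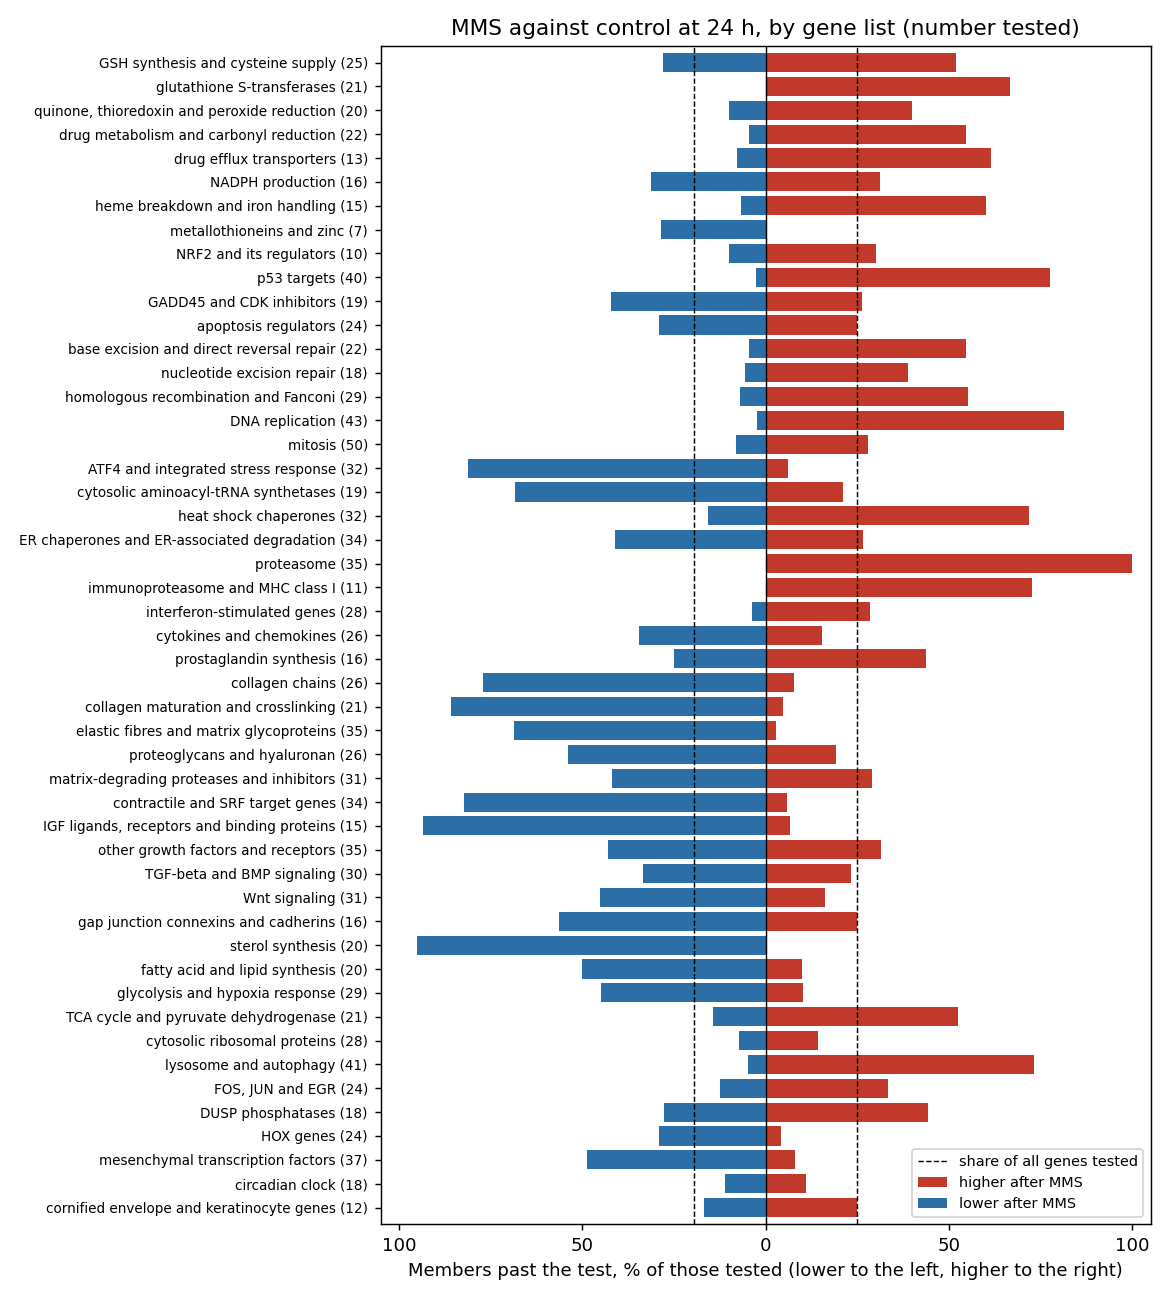
Share of the tested members of each gene list (y axis, number tested in brackets) that passed the test in % (x axis), higher after MMS to the right in red and lower to the left in blue, with dashed lines at the shares of all genes tested, 25.0% and 19.4%. All 35 proteasome genes lie to the right, and 19 of 20 genes of sterol synthesis and 14 of 15 IGF genes to the left.

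Genes of both steps of GSH synthesis were higher. Of 25 genes of GSH synthesis and cysteine supply, 13 were higher and 7 lower, with a median of 0.34. Gclm, the modifier subunit of glutamate-cysteine ligase, the rate-limiting enzyme of GSH synthesis, measured 9.38, 9.27, 9.28 and 9.18 in controls and 11.50, 11.56, 11.42 and 11.44 after MMS (4.61-fold, adjusted p = 7.2e-16). Its catalytic subunit Gclc measured 9.0, 8.96, 8.76 and 9.04 and 11.06, 11.01, 10.88 and 10.93 (4.08-fold, SE 0.08, adjusted p = 1.9e-18), and glutathione synthetase Gss measured 8.95, 8.90, 8.82 and 8.86 and 9.92, 9.84, 9.89 and 9.95 (2.03-fold, adjusted p = 5.9e-16). No MMS array came near a control for any of the 3, and these genes also had MMS effects of log2 1.97, 1.78 and 0.82 at 8 h in the same order. The lower members included Chac1, the amino acid transporter Slc1a4, which fell by 1.19 on the log2 scale (adjusted p = 2.7e-10), and Cth, the enzyme that makes cysteine from cystathionine, which fell by 0.92 (adjusted p = 4.9e-06). Chac1, Slc1a4 and Cth are also known ATF4 targets.

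Enzymes that conjugate GSH to electrophiles were higher too. Of 21 GSH transferases 14 were higher and none lower, with a median of 0.69, while 11 were higher and 1 lower without MMS replicate 3 and 13 were higher and 2 lower with centred arrays. The omega class gene Gsto2 was below the limit for low values in controls, at 3.55, 3.55, 3.58 and 3.68, and reached 5.75, 5.21, 5.36 and 5.32 after MMS (at least 2.01-fold, adjusted p = 3.7e-15). Gsto1, one of the more strongly expressed genes, went from 12.25, 12.19, 12.19 and 12.28 to 13.22, 13.22, 13.19 and 13.24 (1.99-fold, adjusted p = 9.0e-15), with all arrays of a group within 0.1 of each other. Among 20 genes of quinone, thioredoxin and peroxide reduction 8 were higher and 2 lower. Srxn1, which repairs overoxidized peroxiredoxins, measured 8.74, 8.55, 8.55 and 8.56 in controls and 11.45, 11.35, 11.29 and 11.34 after MMS (6.75-fold, adjusted p = 2.0e-14), and a dimmer probe set gave 0.95 on the log2 scale. Thioredoxin reductase Txnrd1 was 2.33-fold higher (adjusted p = 2.3e-14) and catalase Cat 2.7-fold (adjusted p = 4.7e-10), whereas extracellular superoxide dismutase Sod3 fell by 0.91 on the log2 scale (adjusted p = 1.5e-07).

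Of 22 genes of drug metabolism and carbonyl reduction 12 were higher and 1 lower. The carbonyl reductase Cbr3 went from 8.76, 8.94, 8.80 and 8.74 to 10.94, 10.95, 10.98 and 11.03 (4.48-fold, SE 0.07, adjusted p = 1.3e-19), and the alkenal reductase Ptgr1 from 10.26, 10.44, 10.40 and 10.36 to 12.85, 12.75, 12.76 and 12.83 (5.39-fold, adjusted p = 6.0e-15). The aldo-keto reductase Akr1b8 was 2.84-fold higher (adjusted p = 1.6e-17) at 24 h, where its effect at 8 h had been -0.27 on the log2 scale. Of 13 efflux transporters 8 were higher and 1 lower, with a median of 0.64. Abcc4, which exports cyclic nucleotides and conjugates, measured 7.29, 7.08, 7.08 and 7.35 in controls and 9.13, 8.95, 9.29 and 9.12 after MMS (3.79-fold, adjusted p = 9.0e-15). The cholesterol exporter Abca1 was 3.36-fold and the multidrug pump Abcb1b 2.49-fold higher (adjusted p = 8.2e-09 and 7.5e-12), and Abcg2, which marks side population cells, was 1.71-fold lower (adjusted p = 1.4e-05).

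NADPH, the reductant of these enzymes, is made by the pentose phosphate pathway, by malic enzyme and by folate enzymes, and these did not move as a group. Of 16 genes 5 were higher and 5 lower, with a median of 0.01. Taldo1, transaldolase of the pentose phosphate pathway, went from 10.76, 10.80, 10.69 and 10.71 to 12.78, 12.83, 12.86 and 12.86 (4.26-fold, adjusted p = 1.1e-15), and Pgd, phosphogluconate dehydrogenase, was 2.35-fold higher (adjusted p = 3.0e-15). The mitochondrial folate enzyme Mthfd2, by contrast, went from 10.54, 10.53, 10.50 and 10.50 to 8.00, 8.17, 8.60 and 8.16 (4.87-fold lower, SE 0.08, adjusted p = 2.4e-19), as did Aldh1l2 of the same pathway. Heme and iron genes were higher in 9 of 15 cases and lower in 1, at a median of 0.43 that was 0.25 without MMS replicate 3. With centred arrays 6 were higher and 1 lower. Hmox1, the inducible heme oxygenase, measured 10.45, 10.18, 10.03 and 10.21 in controls and 11.23, 11.16, 10.98 and 11.13 after MMS (1.87-fold, adjusted p = 6.7e-06). Alas1, which starts heme synthesis, was 2.29-fold higher (adjusted p = 2.6e-13) and the ferrireductase Steap3 2.02-fold (adjusted p = 9.5e-07). Of 7 metallothionein and zinc genes none was higher and 2 were lower, whereas without MMS replicate 3 there were 2 higher and 2 lower.

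Of 10 transcripts of NRF2 and its regulators 3 were higher and 1 lower. Nfe2l2, which encodes NRF2, measured 10.06, 10.34, 10.22 and 10.25 in controls and 10.56, 10.42, 10.68 and 10.54 after MMS, so that the lowest MMS array lay just above the highest control (1.26-fold, SE 0.10, adjusted p = 0.0048). With the mean of all its probe sets in place of the brightest one the log2 difference was 0.21 and the adjusted p 0.075. Sqstm1, the autophagy adaptor p62 that binds KEAP1, was 1.72-fold higher (adjusted p = 4.6e-13) and the small MAF partner Mafg 1.55-fold (adjusted p = 1.4e-05), with 0.20 on the log2 scale for another Mafg probe set (adjusted p = 0.1). Nfe2l1, a related factor that raises proteasome genes, fell by 0.38 (adjusted p = 0.0027), with overlapping groups, and did not pass in the methods' t-test after adjustment (adjusted p = 0.067).

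NRF2 binds antioxidant response elements, and the core letters TGACNNNGC were searched on both strands of RefSeq promoter windows from 250 bases before to 50 after the annotated start of each gene (GRCm38.p6). They occur in 12.4% of 32851 such windows. Of the members of the GSH, transferase, reduction, drug metabolism, NADPH and heme lists, 98 have a window. Of these, 14 hold the letters in any of their windows (14.3%). A gene with several windows has more places for a match, so this share of genes is not directly comparable with the share of windows. These were 10 of the 53 members called higher and 4 of the 45 others. A stretch of 100 bases is shown for Srxn1 and Gclm, which rose 6.75-fold and 4.61-fold, with the match in capitals. Each is read 5′ to 3′ on the plus strand, which is the gene's strand, and the match reads TGACCTAGC for Srxn1 and TGACGGTGC for Gclm on the other strand. The Srxn1 stretch is chr2:152105474-152105573 and the Gclm stretch chr3:122245377-122245476.
Srxn1: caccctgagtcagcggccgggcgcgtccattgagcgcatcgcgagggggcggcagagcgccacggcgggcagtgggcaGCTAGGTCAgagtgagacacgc
Gclm: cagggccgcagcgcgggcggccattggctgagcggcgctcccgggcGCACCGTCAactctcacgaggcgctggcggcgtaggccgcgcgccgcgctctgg
The match begins at base 28 relative to the annotated start for Srxn1 and at base -134 for Gclm. Only these letters were searched, so other forms of the element are not marked. A match of these letters is a description of the window, and whether NRF2 binds there was not measured.

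Most targets of p53 were higher. Of 40 targets 31 were higher and 1 lower, with a median of 0.44. Most rises were below 2-fold, which 3 of the 40 passed. Mdm2, the ubiquitin ligase that keeps p53 low, measured 11.25, 10.99, 10.98 and 10.95 in controls and 12.52, 12.39, 12.32 and 12.40 after MMS (2.57-fold, SE 0.07, adjusted p = 6.5e-16). Perp, a membrane protein of apoptosis and desmosomes, went from 7.84, 7.91, 7.83 and 8.01 to 10.01, 10.06, 10.04 and 9.88 (4.28-fold, adjusted p = 6.1e-11), and the xylulose reductase Dcxr from 9.22, 9.17, 9.02 and 8.97 to 10.90, 10.77, 10.45 and 10.80 (3.1-fold, adjusted p = 5.7e-16). Perp and Dcxr had effects of 0.15 and -0.14 at 8 h, whereas Trp53inp1, a stress-induced p53 partner, was at 1.66 at 8 h and at 1.00 at 24 h (adjusted p = 1.9e-11). Its relative Trp53inp2, which acts in autophagy, fell by 0.82 on the log2 scale (adjusted p = 2.4e-09), while a dim probe set of it gave -0.37 (adjusted p = 0.15).

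Cdkn1a, the p21 inhibitor of cyclin-dependent kinases and a main effector of p53, was higher on both of its probe sets. The brighter one measured 12.50, 12.36, 12.30 and 12.31 in controls and 12.92, 12.74, 12.55 and 12.70 after MMS, with MMS replicate 3 just above the highest control (1.28-fold, SE 0.07, adjusted p = 1.6e-04). The other went from a mean of 11.74 to 12.63, a log2 difference of 0.88 (adjusted p = 2.6e-07). Among 19 genes of the GADD45 family, CDK inhibitors and cyclins D, 5 were higher and 8 lower. The antiproliferative gene Btg1 was 1.64-fold higher (adjusted p = 7.6e-08). Cyclin D2, Ccnd2, one of the brightest genes, went from 13.60, 13.55, 13.52 and 13.51 to 12.32, 12.36, 12.61 and 12.34 (2.2-fold lower, adjusted p = 7.4e-15), and cyclin D1, Ccnd1, was 1.71-fold lower (adjusted p = 1.4e-10). Regulators of apoptosis were divided, 6 of 24 higher and 7 lower. The pro-apoptotic Bcl2l11, or BIM, measured 8.90, 9.0, 9.07 and 9.01 in controls and 10.39, 9.83, 9.92 and 9.86 after MMS (1.00 on the log2 scale, adjusted p = 1.6e-09), and Pmaip1, or NOXA, was 1.69-fold higher (adjusted p = 1.7e-08). Bcl2, which holds back apoptosis, went from 7.46, 7.62, 7.48 and 7.37 to 6.38, 6.31, 6.76 and 6.40 (2.03-fold lower, adjusted p = 1.3e-11).

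DNA repair genes moved by less than 2-fold, each of the 69 tested on 3 lists. Of 22 genes of base excision and direct reversal repair 12 were higher and 1 lower, with a median of 0.28. The glycosylase Mbd4, which removes thymine from mismatches with guanine, measured 5.60, 5.53, 5.63 and 5.63 in controls and 7.03, 6.68, 6.42 and 6.16 after MMS (1.96-fold, adjusted p = 1.5e-07). Its MMS arrays were spread over more than 0.8. Mpg, the glycosylase that removes the methylated adenine and guanine bases that MMS leaves, measured 8.59, 8.32, 8.36 and 8.36 and 9.01, 8.97, 8.73 and 8.93 (1.42-fold, adjusted p = 8.6e-07), though another, dimmer probe set gave -0.15 (adjusted p = 0.23). Alkbh3, which reverses methylation of single-stranded DNA and RNA, was 1.29-fold higher (adjusted p = 6.2e-06), with 0.28 for a dimmer probe set (adjusted p = 0.06). Neil1, a glycosylase for oxidized bases, was 1.68-fold higher (adjusted p = 1.4e-05), and the uracil glycosylase Ung fell by 0.68 on the log2 scale (adjusted p = 1.1e-04). Mgmt, which takes methyl groups off the oxygen of guanine, measured 7.86, 7.98, 7.98 and 7.91 in controls and 7.98, 7.98, 7.62 and 7.89 after MMS, so that the groups overlapped. Its log2 difference was -0.06 with an SE of 0.10 (adjusted p = 0.65) and 0.02 without MMS replicate 3.

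Of 18 genes of nucleotide excision repair 7 were higher and 1 lower. The endonuclease Ercc5 was 1.86-fold higher (8.45, 8.37, 8.42 and 8.29 against 9.36, 9.25, 9.15 and 9.34, adjusted p = 1.7e-10) and the damage sensor Xpc 1.78-fold (adjusted p = 2.5e-07), both also counted as p53 targets. Ercc1, of the other endonuclease, fell by 0.26 (adjusted p = 6.8e-04), and its other probe sets gave -0.37 (adjusted p = 1.1e-04) for a bright one and -0.05 (adjusted p = 0.81) for a dim one. Homologous recombination and Fanconi genes were higher in 16 of 29 cases and lower in 2, at a median of 0.26. The counts were 11 and 3 with centred arrays. Brca1 was 1.77-fold higher (adjusted p = 4.8e-06) and the nuclease Mre11a 1.58-fold (adjusted p = 2.3e-07), with -0.18 for a dim Mre11a probe set (adjusted p = 0.25), while Nbn of the same complex fell by 0.37 (adjusted p = 1.8e-04) and did not differ past the threshold from the controls at 0 h (adjusted p = 0.48).

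Most replication genes were higher, and most mitotic genes passed in neither direction. Of 43 genes of DNA replication 35 were higher and 1 lower, with a median of 0.44, and 30 were higher with centred arrays. Rfc3, of the clamp loader, measured 7.65, 7.91, 7.52 and 7.67 in controls and 8.53, 8.61, 8.47 and 8.68 after MMS (1.85-fold, adjusted p = 2.4e-09). The helicase subunit Mcm7 measured 10.97, 10.84, 10.88 and 10.94 and 11.45, 11.44, 11.38 and 11.42 (1.43-fold, adjusted p = 2.0e-09), and Rfc2 was 1.43-fold higher (adjusted p = 2.1e-10). Each rise was small, and the arrays of a group lay close together. The polymerase subunit Pold2 was the 1 lower member, at 8.19, 7.97, 7.95 and 8.10 in controls and 7.54, 7.48, 7.34 and 7.33 after MMS (1.55-fold, adjusted p = 1.5e-06). Of 50 mitotic genes 14 were higher, 4 lower and 32 neither, at a median of 0.08. With centred arrays 7 were higher and 6 lower. The kinetochore protein Spc25 was 1.68-fold higher (9.63, 9.72, 9.70 and 9.76 against 10.45, 10.40, 10.41 and 10.56, adjusted p = 9.8e-10) and securin Pttg1 1.61-fold (adjusted p = 1.6e-08), with 0.20 for a dim Pttg1 probe set (adjusted p = 0.22).

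The cytokinesis genes Anln and Racgap1 were lower. Anln measured 10.84, 10.95, 10.97 and 10.97 in controls and 10.51, 10.59, 10.60 and 10.62 after MMS (1.28-fold, adjusted p = 0.0052). Racgap1 measured 8.92, 8.92, 8.78 and 8.98 and 8.55, 8.57, 8.36 and 8.64 (1.29-fold, adjusted p = 0.0042), and another probe set as bright gave -0.07 (adjusted p = 0.71). Relative to the control cells at 0 h, before the change of medium, MMS-treated cells at 24 h were higher by 0.29 for Anln and 0.43 for Racgap1 on the log2 scale (adjusted p = 0.018 and 0.00094).

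Late cell cycle genes often carry the cell cycle homology region, with the core letters TTTGAA, at their start sites, where the DREAM complex binds. These letters occur on either strand in 17.9% of all 32851 windows. Counted by gene, with a match in any window, they occur in 35 of the 77 replication and mitosis genes with a window (45.5%). As above, a share of genes is not directly comparable with a share of windows. Among these 77 genes the letters occur in 12 of the 41 called higher (29.3%) and in 23 of the 36 others (63.9%). Both lists are pooled here, and 35 of 43 replication genes but 14 of 50 mitotic genes were called higher. The shares of called and other genes thus also differ in their mix of lists, and the share within each list was not counted. Stretches of 100 bases with the matches in capitals are shown for Spc25, called higher, and for Anln and Racgap1, called lower, read 5′ to 3′ on the gene's minus strand. They are chr2:69206164-69206263, chr9:22389157-22389256 and chr15:99651607-99651706 (GRCm38.p6, RefSeq). Anln holds a match on each strand, so that its first capitals read TTCAAA.
Spc25: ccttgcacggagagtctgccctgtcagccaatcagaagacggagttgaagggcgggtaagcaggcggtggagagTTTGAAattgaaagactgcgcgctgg
Anln: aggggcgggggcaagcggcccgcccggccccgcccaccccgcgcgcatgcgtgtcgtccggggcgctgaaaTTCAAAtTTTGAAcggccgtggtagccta
Racgap1: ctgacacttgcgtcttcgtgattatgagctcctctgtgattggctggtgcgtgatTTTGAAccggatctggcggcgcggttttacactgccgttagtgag
A match says nothing about which factor was bound in these cells.

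Most genes of the ATF4 program were lower. Of 32 ATF4 and integrated stress response genes 26 were lower, 17 of them at least 2-fold, and 2 were higher, with a median of -1.04. Nupr1, a small stress-induced chromatin protein, measured 11.73, 11.82, 11.74 and 11.87 in controls and 9.51, 9.44, 9.53 and 9.54 after MMS (4.88-fold lower, SE 0.08, adjusted p = 4.9e-19). The serine synthesis enzymes Psat1 and Psph followed. Psat1 went from 11.95, 11.89, 11.92 and 11.80 to 10.19, 10.30, 10.63 and 10.23 (2.93-fold lower, adjusted p = 1.1e-17), and Psph from 9.50, 9.51, 9.52 and 9.49 to 7.73, 7.52, 7.77 and 7.42 (3.71-fold lower, adjusted p = 1.7e-17). Ddit3, the factor CHOP that ATF4 induces, measured 9.88, 9.87, 9.79 and 9.87 in controls and 8.85, 8.73, 8.74 and 8.75 after MMS, with tight groups (2.12-fold lower, adjusted p = 3.0e-15). At 8 h the effect of MMS on Nupr1 was 1.16 and on Ddit3 1.90 on the log2 scale, against -2.29 and -1.08 at 24 h, and these differences between times were not tested. Slc7a11, also a known ATF4 target, was 1 of the 2 higher members.

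Cytosolic aminoacyl-tRNA synthetases, which charge tRNAs and of which several are ATF4 targets, were lower in 13 of 19 cases and higher in 4, at a median of -0.50. Tars, for threonine, went from 11.22, 11.27, 11.27 and 11.22 to 10.38, 10.37, 10.35 and 10.28 (1.87-fold lower, SE 0.05, adjusted p = 7.2e-16), Cars, for cysteine, was 1.99-fold lower (adjusted p = 4.2e-14) and Nars, for asparagine, 1.79-fold (adjusted p = 6.1e-13). Rars, for arginine, was higher by 0.31 on the log2 scale (adjusted p = 1.5e-06).

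Most heat shock chaperones were higher, and ER chaperones were divided. Of 32 heat shock chaperones 23 were higher and 5 lower, at a median of 0.35, and 16 were higher with centred arrays. The small heat shock protein Cryab measured 10.39, 10.77, 10.79 and 10.94 in controls and 12.57, 12.62, 12.51 and 12.65 after MMS (3.64-fold, adjusted p = 1.6e-15). The inducible Hspa1a measured 7.25, 7.26, 7.05 and 7.15 and 8.68, 8.87, 8.93 and 8.84 (3.14-fold, adjusted p = 2.3e-15), whose effect had been 3.42 at 8 h and was 1.65 at 24 h on the log2 scale. Probes for Hspa1a can also pick up its near-identical neighbour. Hspb6, a small heat shock protein of smooth muscle, was lower, at 9.86, 9.87, 9.86 and 10.01 in controls and 8.17, 8.37, 8.65 and 8.45 after MMS (2.82-fold, adjusted p = 4.4e-14). Of 34 genes of ER chaperones and ER-associated degradation 9 were higher and 14 lower. Herpud1, which assembles the degradation complex, went from 9.99, 10.07, 9.99 and 9.88 to 8.33, 8.16, 8.99 and 8.21 (2.95-fold lower, adjusted p = 5.0e-13). The main ER chaperone Hspa5, or BiP, had a mean of 13.05 (SD 0.05, n = 4) in controls and 12.48 (SD 0.16, n = 4) after MMS (1.49-fold lower, SE 0.06, adjusted p = 1.8e-09), and Manf was 1.44-fold lower (adjusted p = 1.8e-09), whereas the co-chaperone Dnajb9 was 1.71-fold higher (adjusted p = 1.6e-11). At 8 h the effects on Herpud1, Hspa5 and Manf were 1.37, 0.79 and 0.66.

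All 35 proteasome genes were higher, each by less than 2-fold, with a median of 0.57 and a range of 0.19 to 0.88. The call held for all 35 without MMS replicate 3 and for 33 with centred arrays. Psma4, of the core ring, measured 11.67, 11.83, 11.77 and 11.80 in controls and 12.49, 12.53, 12.47 and 12.52 after MMS (1.66-fold, adjusted p = 1.4e-12). The cap subunits Psmd11 and Psmd4 were 1.64-fold and 1.65-fold higher (adjusted p = 2.3e-14 and 8.3e-14). The groups of all 3 were separated by more than 0.5. Of the other probe sets of Psmd11, 2 bright ones gave 0.69 and 0.47, both called, and another bright one 0.12 (adjusted p = 0.35), a dim one was at -0.01, and a dim Psmd4 probe set gave 0.04 (adjusted p = 0.89).

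Of 11 genes of the immunoproteasome and MHC class I presentation 8 were higher and none lower, at a median of 0.66. Tap1, which carries peptides into the ER, measured 6.72, 6.79, 6.81 and 6.62 in controls and 8.35, 8.34, 8.03 and 8.12 after MMS (2.78-fold, adjusted p = 3.3e-08). Nlrc5, the activator of MHC class I genes, was below the limit for low values in controls, at 3.65, 3.53, 3.48 and 3.44, and reached 5.03, 4.83, 4.84 and 4.61 (at least 1.35-fold, adjusted p = 3.7e-10). Psme1, of the proteasome activator, was 1.65-fold higher (adjusted p = 1.9e-05). H2-K1, a class I heavy chain of a family with near-identical members, measured 8.94, 8.89, 8.78 and 8.92 and 9.96, 10.12, 10.89 and 10.11, with MMS replicate 3 well above the others (2.62-fold, adjusted p = 4.8e-04), and 2 other probe sets gave 1.00 and 0.74 without passing (adjusted p = 0.19 and 0.35). The mean of its probe sets gave 0.79 and did not pass either (adjusted p = 0.11). Without replicate 3, 6 of the 11 genes of the list were called. Of 28 interferon-stimulated genes 8 were higher, 1 lower and 19 neither. Ifi35 was 2.53-fold higher (adjusted p = 4.7e-06) and the deISGylase Usp18 2.89-fold (adjusted p = 4.2e-05), while the exonuclease Isg20 fell by 0.62 on the log2 scale (adjusted p = 4.4e-05).

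Lysosome and autophagy genes were higher in 30 of 41 cases and lower in 2, at a median of 0.34, with counts of 23 and 4 for centred arrays. Gpnmb, a membrane glycoprotein of lysosomes, went from 8.61, 8.51, 8.52 and 8.55 to 10.09, 10.20, 9.87 and 10.14 (2.88-fold, SE 0.07, adjusted p = 4.2e-17), and the galactosidase Gla from 7.69, 7.97, 7.93 and 7.85 to 9.61, 9.46, 9.32 and 9.51 (3.06-fold, adjusted p = 4.1e-15). The protease cathepsin B, Ctsb, was 1.57-fold higher (adjusted p = 9.0e-12). Macrophages are rich in these transcripts too, and the macrophage marker values given above moved in the same direction through 3 of 14 genes. Their part in this result was not tested.

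Most collagen genes were lower. Of 26 chains 20 were lower, 15 of them at least 2-fold, and 2 were higher, at a median of -1.08 that was -1.19 without MMS replicate 3. Col1a1, of the main collagen of fibroblasts, measured 14.13, 13.88, 13.77 and 13.87 in controls and 11.87, 11.87, 12.22 and 11.69 after MMS (4.01-fold lower, adjusted p = 1.4e-16). Col5a1, of the collagen that starts type I fibrils, measured 13.31, 13.15, 13.16 and 13.16 and 11.10, 11.18, 11.40 and 11.17 (3.95-fold lower, SE 0.07, adjusted p = 1.3e-19). Col6a2, of beaded filaments, measured 11.04, 11.02, 10.80 and 11.01 and 8.97, 8.77, 9.24 and 8.81 (4.06-fold lower, adjusted p = 1.8e-17). In each case MMS replicate 3 was the highest MMS array, and no group overlapped the other. Col10a1, of hypertrophic cartilage and a substrate of Mmp13, went the other way, from 7.95, 7.72, 7.64 and 7.78 to 9.53, 9.52, 9.49 and 9.46 (3.31-fold higher, adjusted p = 1.1e-15). Several collagens are also among the fibroblast markers given above.

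The enzymes that hydroxylate and crosslink collagen were lower too, 18 of 21 with 1 higher, at a median of -0.69. The prolyl hydroxylase P4ha1 went from a mean of 10.94 (SD 0.04, n = 4) to 9.61 (SD 0.07, n = 4), which was lower in all 4 MMS arrays than in any control (2.51-fold lower, SE 0.05, adjusted p = 6.1e-18) and P4ha2 from 10.92, 10.85, 10.75 and 10.70 to 9.26, 9.14, 9.58 and 9.24 (2.83-fold lower, adjusted p = 8.5e-16). The lysyl hydroxylase Plod2 was the higher one, by 0.49 on the log2 scale (adjusted p = 3.2e-04), though another probe set gave 0.17 (adjusted p = 0.32).

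Other matrix genes were mostly lower. Of 35 genes of elastic fibres and matrix glycoproteins 24 were lower and 1 higher, at a median of -0.48. Tenascin C, Tnc, measured 13.38, 13.24, 13.24 and 13.30 in controls and 11.71, 11.78, 11.89 and 11.69 after MMS (2.87-fold lower, SE 0.06, adjusted p = 1.5e-18). The laminin chain Lama2 was 3.29-fold lower (adjusted p = 1.2e-15) and the thrombospondin Thbs2 3.55-fold (adjusted p = 2.3e-15), while Matn4, a matrilin, was 2.59-fold higher (adjusted p = 2.7e-11). Of 26 genes of proteoglycans and hyaluronan 14 were lower and 5 higher. The glypican Gpc6 went from 9.38, 9.42, 9.17 and 9.25 to 6.59, 6.63, 7.24 and 6.49 (5.94-fold lower, adjusted p = 1.8e-17), and 3 of its 4 other probe sets were lower too. Osteoglycin, Ogn, went from 10.32, 10.81, 10.75 and 10.71 to 8.20, 7.85, 9.05 and 7.92 (5.24-fold lower, adjusted p = 4.1e-12), with MMS replicate 3 about 1 unit above the others. Versican, Vcan, was 1.52-fold higher (adjusted p = 9.9e-08). The hyaluronan synthase Has2 was also higher, at 9.35, 9.28, 9.27 and 9.58 in controls and 10.16, 10.22, 10.23 and 10.19 after MMS (1.78-fold, adjusted p = 2.3e-07), and its effect at 8 h had been -4.43 on the log2 scale.

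Genes of matrix-degrading proteases and their inhibitors split, 9 of 31 higher and 13 lower. Besides Mmp13, the stromelysin Mmp10 was higher, at 4.38, 4.25, 4.36 and 4.42 in controls and 6.58, 6.82, 6.55 and 6.61 after MMS (at least 4.70-fold, adjusted p = 3.8e-13). The proteoglycan-cleaving ADAMTS enzymes Adamts12 and Adamts5 were lower. Adamts12 measured 9.51, 9.35, 9.40 and 9.39 in controls and 7.03, 6.92, 7.51 and 6.93 after MMS (log2 -2.32, adjusted p = 1.1e-17), and Adamts5 was 5.32-fold lower (adjusted p = 8.2e-14).

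Most contractile genes were lower. Of 34 contractile and SRF target genes 28 were lower and 2 higher, none of them with the centred arrays, at a median of -0.68. Calponin, Cnn1, measured 12.42, 12.15, 12.10 and 12.27 in controls and 9.41, 9.43, 10.16 and 9.25 after MMS (6.38-fold lower, SE 0.12, adjusted p = 2.1e-17). The smooth muscle actin Actg2 measured 11.20, 11.10, 11.14 and 11.01 and 8.35, 8.11, 9.15 and 8.17 (6.35-fold lower, adjusted p = 8.3e-17), and the myosin light chain Myl9 13.21, 13.06, 12.96 and 13.01 and 11.14, 11.16, 11.83 and 11.28 (3.27-fold lower, adjusted p = 4.4e-16). MMS replicate 3 was the highest MMS array for all 3. At 72 h the effects on Cnn1, Actg2 and Myl9 were 0.91, 1.20 and 0.40 on the log2 scale, without a test of the difference.

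Of 15 genes of IGF ligands, receptors and binding proteins 14 were lower and 1 higher, at a median of -0.84. Igfbp4, another binding protein, went from 12.05, 11.71, 11.57 and 11.64 to 10.71, 10.63, 10.63 and 10.65 (2.13-fold lower, adjusted p = 2.2e-11). The higher one was Irs2, an adaptor of the insulin receptor, at 6.62, 6.31, 6.24 and 6.31 in controls and 6.80, 7.43, 6.82 and 7.24 after MMS (1.63-fold, adjusted p = 2.2e-05). Relative to the controls at 0 h Irs2 was at -0.05 (adjusted p = 0.76). Other growth factors and receptors were divided, 11 of 35 higher and 15 lower. Fgf18 rose from below the limit for low values, at 4.02, 3.77, 3.98 and 4.03, to 5.67, 6.17, 5.28 and 5.92 (at least 2.56-fold, adjusted p = 4.9e-12), and the HGF receptor Met was 1.9-fold higher (adjusted p = 1.7e-08). The PDGF ligand Pdgfd was 3.5-fold and pleiotrophin, Ptn, 3.45-fold lower (adjusted p = 5.7e-14 and 4.9e-15), and a dim probe set of Ptn gave -0.13 (adjusted p = 0.51).

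In TGF-beta and BMP signaling 7 of 30 genes were higher and 10 lower. The inhibitors of differentiation Id2 and Id1, which BMP signals raise, were higher. Id2 measured 7.84, 8.21, 7.96 and 8.30 in controls and 9.82, 9.95, 9.59 and 9.74 after MMS (3.25-fold, adjusted p = 1.3e-12), and Id1 was 1.84-fold higher (adjusted p = 2.3e-06). The ligands Bmp4 and Tgfb3 were lower. Bmp4 went from 9.69, 9.71, 9.50 and 9.61 to 6.93, 6.94, 7.85 and 7.07 (5.38-fold, adjusted p = 1.2e-12) and Tgfb3 from 12.05, 11.86, 11.80 and 11.93 to 10.09, 10.14, 10.45 and 10.13 (3.26-fold, adjusted p = 1.9e-14). Of 31 Wnt genes 5 were higher and 14 lower, at a median of -0.30. The ligand Wnt9a was 1.87-fold higher (adjusted p = 7.7e-10), and the secreted proteins Sfrp1 and Dkk3 were 4.53-fold and 4.62-fold lower (adjusted p = 7.6e-16 and 1.6e-15).

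Adhesion genes were lower in 9 of 16 cases and higher in 4. The intercellular adhesion molecule Icam1, induced by inflammatory signals, went from 7.12, 7.01, 7.04 and 7.18 to 9.31, 9.13, 8.83 and 9.08 (2.00 on the log2 scale, SE 0.09, adjusted p = 9.1e-17). The neural adhesion molecule Ncam1 went from 10.72, 10.50, 10.50 and 10.62 to 8.69, 8.50, 8.77 and 8.48 (3.93-fold lower, SE 0.07, adjusted p = 1.3e-19), Vcam1 was 2.59-fold lower (adjusted p = 1.4e-13) and the mesenchymal cadherin Cdh11 2.38-fold (adjusted p = 2.2e-12). The main fibroblast connexin Gja1 did not share the fall of Gjb2. It measured 12.17, 12.21, 12.31 and 12.26 in controls and 12.43, 12.40, 12.51 and 12.55 after MMS (1.18-fold higher, adjusted p = 0.0054), its call was lost with centred arrays (0.16, adjusted p = 0.16), and its other probe sets lay between -0.00 and 0.35.

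Sterol synthesis was lower along the pathway. Of 20 genes 19 were lower, 10 of them at least 2-fold, and none was higher, at a median of -1.01. Cyp51, lanosterol demethylase, measured 10.40, 10.43, 10.47 and 10.54 in controls and 8.74, 8.74, 9.10 and 8.73 after MMS (3.1-fold lower, SE 0.08, adjusted p = 2.9e-16). Squalene epoxidase Sqle measured 10.96, 10.87, 10.89 and 10.71 and 9.12, 9.25, 9.72 and 9.26 (2.87-fold lower, adjusted p = 7.2e-16), and farnesyl diphosphate synthase Fdps 11.64, 11.71, 11.69 and 11.72 and 10.17, 10.05, 10.45 and 9.99 (2.88-fold lower, adjusted p = 3.8e-15). The sterol dehydrogenase Nsdhl was 2.07-fold lower (adjusted p = 2.0e-15). No MMS array of these genes came near a control, and replicate 3 was the highest MMS array for each. Abca1, the cholesterol exporter named above, was higher at the same time.

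Of 20 genes of fatty acid and lipid synthesis 10 were lower and 2 higher. The desaturase Scd1 went from 10.12, 10.05, 10.15 and 10.12 to 8.90, 8.92, 8.93 and 8.83 (2.32-fold lower, SE 0.05, adjusted p = 2.1e-18) and acetyl-CoA carboxylase Acaca was 2.1-fold lower (adjusted p = 2.0e-13, with -0.28 and 0.084 for a dim probe set), while the phosphatidate phosphatase Lpin1 was 2.53-fold higher (adjusted p = 3.2e-12). Glycolysis and hypoxia genes were lower in 13 of 29 cases and higher in 3. Phosphofructokinase Pfkl went from 10.50, 10.19, 10.07 and 10.22 to 8.66, 8.66, 8.66 and 8.70 (2.98-fold lower, adjusted p = 1.6e-14, with -0.16 and 0.3 for a dim probe set) and the mitophagy receptor Bnip3 was 2.56-fold lower (adjusted p = 1.2e-14), with Pfkfb4, which makes the activator of phosphofructokinase, by 1.58 on the log2 scale higher (adjusted p = 7.6e-06). Of 21 genes of the TCA cycle and pyruvate dehydrogenase 11 were higher and 3 lower, and 7 were higher without MMS replicate 3. Pyruvate carboxylase Pcx was 2.09-fold higher (adjusted p = 1.4e-08) and the isocitrate dehydrogenase subunit Idh3b 1.57-fold (adjusted p = 1.3e-09), and of the dimmer probe sets 2 of 4 for Pcx (0.79 and 0.76) and 1 of 2 for Idh3b (0.59) passed too. Of 28 ribosomal proteins 22 were neither higher nor lower. Rps25 was 1.69-fold higher (adjusted p = 3.7e-05) and Rpl14 1.48-fold lower (adjusted p = 4.1e-06).

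Secreted signals changed in both directions. Of 26 cytokines and chemokines 4 were higher and 9 lower. Stem cell factor, Kitl, measured 6.14, 6.07, 6.11 and 6.10 in controls and 8.39, 8.43, 8.83 and 8.63 after MMS (5.51-fold, adjusted p = 2.4e-08), and Il11 was 2.03-fold higher (adjusted p = 2.6e-06). The interleukin receptor antagonist Il1rn went from 9.64, 10.03, 9.81 and 9.70 to 7.74, 7.28, 8.02 and 7.29 (4.65-fold lower, adjusted p = 9.0e-15), Cxcl14 from 9.83, 9.55, 9.33 and 9.41 to 6.89, 6.78, 7.53 and 6.76 (5.81-fold lower, adjusted p = 1.0e-12), and Cxcl12 was 2.43-fold lower (adjusted p = 5.1e-14, with -0.24 and 0.14 for a dim probe set). Of 16 genes of prostaglandin synthesis 7 were higher and 4 lower. The prostaglandin E synthase Ptges was 2.28-fold (adjusted p = 2.1e-10) and the inducible cyclooxygenase Ptgs2 1.53-fold higher (adjusted p = 2.9e-05), and prostacyclin synthase Ptgis was 1.71-fold lower (adjusted p = 2.0e-08).

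Immediate early and feedback genes of signaling moved both ways. Of 24 genes of the FOS, JUN and EGR families 8 were higher and 3 lower, among them Fosl1, 1.89-fold higher (adjusted p = 4.8e-10), and Egr2, 1.64-fold lower (adjusted p = 1.6e-05). Relative to the controls at 0 h Egr2 was at 0.22 (adjusted p = 0.14). Of 18 DUSP and related feedback genes 8 were higher and 5 lower. The MAP kinase phosphatase Dusp4 went from 8.55, 8.46, 8.18 and 8.52 to 10.82, 10.51, 10.14 and 10.47 (4.17-fold, adjusted p = 3.8e-13) and Dusp2 from 4.89, 4.78, 4.69 and 4.60 to 6.96, 6.32, 6.16 and 6.45 (3.32-fold, adjusted p = 2.6e-10). Spry1, an inhibitor of receptor tyrosine kinase signaling, went from 8.72, 8.43, 8.42 and 8.25 to 6.23, 6.40, 6.64 and 6.64 (3.94-fold lower, adjusted p = 1.7e-13). Of 24 HOX genes 1, Hoxa9, was higher (1.48-fold, adjusted p = 4.5e-06, with 0.14 for a dimmer probe set, adjusted p = 0.26) and 7 were lower, among them Hoxd8 (1.65-fold, adjusted p = 1.7e-08). Without MMS replicate 3 these counts were 4 and 5.

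Mesenchymal transcription factors were lower in 18 of 37 cases and higher in 3. Sox11 measured 8.27, 8.90, 8.88 and 8.85 in controls and 6.08, 6.33, 6.46 and 6.0 after MMS (5.68-fold lower, adjusted p = 1.9e-15), and Twist2 was 1.51-fold lower (adjusted p = 3.1e-09), whereas the homeobox factor Msx2 was 2.36-fold higher (adjusted p = 1.8e-13). Of 18 clock genes 14 were neither higher nor lower. The output factor Tef was 1.47-fold higher (adjusted p = 7.6e-09) and its opponent Nfil3 2.38-fold lower (adjusted p = 1.1e-11). Of 12 cornified envelope and keratinocyte genes 3 were higher and 2 lower. Besides Lce1f, the small proline-rich protein Sprr1a rose, from 4.63, 4.62, 4.82 and 4.62 to 7.91, 7.88, 6.97 and 7.44 (7.35-fold, adjusted p = 9.4e-14), while Sprr2k of the same family fell by 1.06 on the log2 scale (adjusted p = 1.3e-07).

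Without MMS replicate 3, the array with intestinal transcripts, 502 of the 6285 calls were not made, and another 300 genes passed only then. It left 3497 higher and 2586 lower genes, against 3260 to 3308 and 2566 to 2669 when one of the other MMS arrays was left out. Of the 318 genes at least 2-fold higher 299 were so without it, and 35 passed only then. Of the 420 at least 2-fold lower 411 were so without it, and 54 passed only then. Among the called genes, 6 were named for the size of the shift. Cobl, an actin nucleator enriched in intestinal brush border, measured 6.58, 6.53, 6.18 and 6.47 in controls and 4.93, 3.92, 7.32 and 5.02 after MMS, so that replicate 3 lay above all controls and the others below. Its log2 difference was -1.14 (SE 0.46, adjusted p = 0.042) with that array and -1.82 (adjusted p = 1.8e-04) without it, and a dim probe set gave -0.02. The aldo-keto reductase Akr1c13, whose probes may share signal with its close relatives, measured 3.44, 3.61, 3.57 and 3.44 and 4.54, 4.59, 6.91 and 4.45, a log2 difference of 1.61 with replicate 3 and 1.01 without it (adjusted p = 0.038 and 0.21). Its controls were below the limit for low values. Desmoplakin, Dsp, of desmosomes, measured 4.63, 5.04, 4.74 and 5.15 and 6.93, 6.56, 9.0 and 6.87, a log2 difference of 2.45 and 1.90 (adjusted p = 0.01 and 0.059). In both genes the other 3 MMS arrays were also above every control, and the calls were lost without replicate 3. That fit still took its spread from the arrays of all times. There the mean of the intestinal markers reached 11.20 in a control array at 0 h and 7.38 in an MMS array at 1 h. The lost calls are therefore not a measure of the scatter at 24 h alone. The Akr1c13 call was also lost without any single control (adjusted p = 0.058 to 0.069), and that of Cobl without any one of control replicates 1, 2 and 4 or MMS replicates 1, 2 and 4 (adjusted p = 0.072 to 0.24).

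For the water channel Aqp1, Mylk and Aspn, replicate 3 lay nearer to the controls than the other MMS arrays, and the fall was larger without it. Aqp1 measured 8.39, 8.19, 8.15 and 8.28 in controls and 5.58, 5.62, 7.46 and 5.42 after MMS, and fell by 2.23 with replicate 3 (adjusted p = 1.1e-08) and by 2.71 without it (adjusted p = 4.1e-16). Of the 32 intestinal markers, none was called higher with or without replicate 3, and 2 were lower in both fits. Their median log2 fold change was nevertheless 1.08 with replicate 3 and -0.18 without it.

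**Figure D4:**
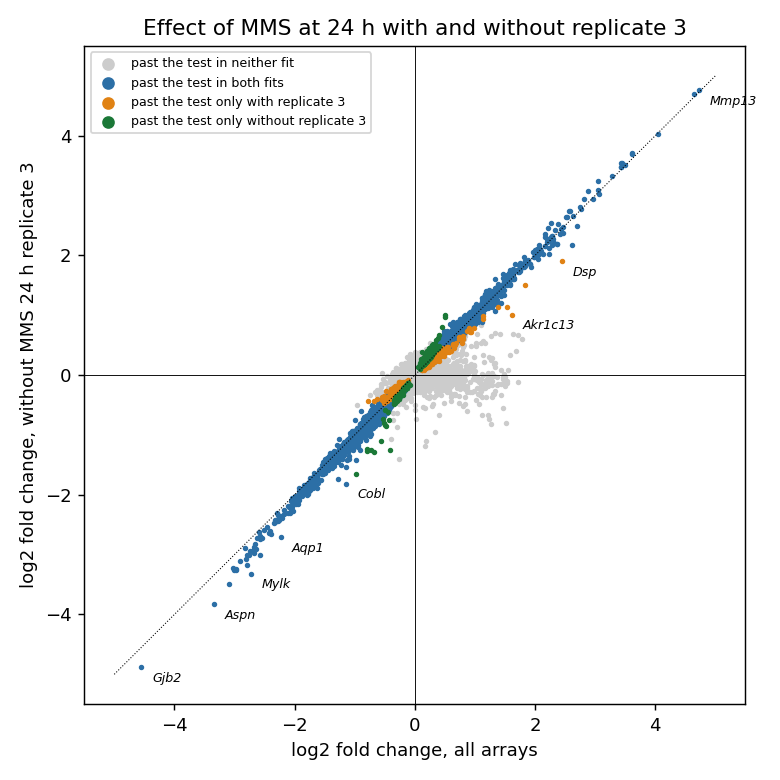
Log2 fold change of MMS against control at 24 h with all arrays (x axis) and without MMS replicate 3 (y axis), 1 point per gene for the 14135 genes tested, coloured by whether it passed the test in both, one or neither fit, with a dotted line of equality. Cobl moves from -1.14 to -1.82 and Dsp from 2.45 to 1.90, and grey points to the right of the line near 0 on the y axis are genes that passed in neither fit.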

How the data were processed

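Gene expression had been measured on Affymetrix mouse arrays. The authors deposited RMA log2 values, that is background-corrected, quantile-normalized and summarized signals of 45101 probe sets on 35 arrays, and the version of the tool is not given in the sources used here. Replicate 4 of MMS at 72 h is not analysed here. Of the probe sets, 34958 have a single gene symbol in GEO's platform annotation and 34754 of these (99.4%) matched a RefSeq gene. Each of 18194 genes was represented by its brightest probe set on average, and 14135 genes with a group mean above log2 4.40, the 40th percentile of all values, were tested. Where the mean of one group at 24 h lay below this limit, a fold is given as a lower bound, with that group's arrays raised to the limit. One model over the 9 groups (26 residual degrees of freedom) was fitted with limma 3.58.1 in R 4.3.3, two-sided, with Benjamini-Hochberg adjustment over all genes tested and a threshold of 0.05. Adjusted p-values in the text come from this limma fit unless stated.

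The genes named are the 15 largest changes in each direction that were called with and without MMS replicate 3, at least 2-fold and without overlap, those with the smallest adjusted p on each gene list, some pathway genes whatever their change, and 6 genes that moved most without MMS replicate 3. One gene of this rule is not reported here. Members and lists were chosen with earlier results of these data known. On simulated data with each gene's pooled spread, 84.0% of 100 genes changed 1.5-fold and 96.0% of 100 genes changed 2-fold were called among 14135 genes. There were 6.74% false calls. The simulated arrays had independent noise and none stood apart like MMS replicate 3. Far fewer genes were changed than the 44.5% called here, so these rates need not hold for the real arrays. Promoter windows came from RefSeq (GRCm38.p6), and 153 of the 197 genes named had one. Alternatives changed the arrays left out, the scaling, the low-value limit, which probe set stood for a gene, the model, the test, the reference group and pairing by replicate number. Plots were drawn with matplotlib 3.10.9 in Python 3.11.15.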

Additional observations from a re-analysis of the deposited data

Results flagged for a closer look

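In 41 of the 394 groups of 4 arrays behind the genes named, a single array lay far from the other 3, by Dixon's test at 95%, where chance gives about 1 in 20 groups. MMS replicate 3, the array with intestinal transcripts, accounted for 21 of the 41. It was the highest MMS array for Gjb2 at 7.45, Aspn at 7.65, Col3a1 at 11.33, Adamts5 at 8.83, Tgfb3 at 10.45, Bmp4 at 7.85 and Cxcl14 at 7.53. The same held for the sterol genes Cyp51 at 9.10 and Nsdhl at 9.26, the folate enzyme Aldh1l2 at 7.98, cyclin Ccnd2 at 12.61, the transcription factors Egr2 at 7.92 and Hoxd8 at 6.82, and Akr1c13 at 6.91, Dsp at 9.0 and Aqp1 at 7.46. It was the lowest MMS array for Blvrb at 10.55, Lce1d at 5.82, Ccnd1 at 10.91, Rps25 at 10.25 and Isg20 at 5.78. Of these 21 genes, Akr1c13 and Dsp lost their call without this array.

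Among the other MMS arrays, replicate 1 stood apart with Trp53inp2 at 9.43, Bcl2l11 at 10.39 and Ddit3 at 8.85, and replicate 4 with Pfkl at 8.70. Of the controls, replicate 1 stood apart with Srxn1 at 8.74, Mdm2 at 11.25, Mpg at 8.59, Anln at 10.84, Col5a1 at 13.31, Met at 7.75, Sox11 at 8.27 and Tef at 8.96. Replicate 2 did so with Pgd at 11.40 and Fgf18 at 3.77, replicate 3 with Ddit3 at 9.79, Col6a2 at 10.80, Il11 at 5.63 and Sprr1a at 4.82, and replicate 4 with Hspb6 at 10.01 and Egr2 at 8.44.

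The effect of MMS at 24 h differed from that at another time in 18 tests on 10 genes (limma, adjusted p under 0.05), given here as the log2 effect at 24 h less that at the other time. Against 8 h it was 4.15 for Mmp13, 2.20 for Gsta4, 3.67 for Tnfrsf18 and 1.11 for Blvrb. Against 72 h it was 5.23 for Mmp13, 3.63 for Gsta4, 3.67 for Lce1f, 2.72 for Tnfrsf18 and 3.01 for Blvrb. Among the falls it was -2.25 and -3.07 for Gjb2, -2.77 and -2.04 for Aspn, -1.88 and -2.62 for Col3a1 and -2.31 and -2.55 for Slc1a6 against 8 h and 72 h, and -1.73 for Igfbp5 against 8 h. These genes were chosen for the size of their change at 24 h, so that a larger effect there than at other times is in part fixed by the choice.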

How the results depend on the processing

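The counts of called genes stayed within 1.5 times their value in all 92 alternatives, between 2736 and 4170 higher and 2456 and 3376 lower genes, and between 258 and 390 at least 2-fold higher and 317 and 497 at least 2-fold lower. Leaving out each array in turn gave 3193 to 3497 higher and 2557 to 2669 lower genes, and 307 to 334 and 402 to 465 at 2-fold. Of 4912 alternative values of the 197 genes named, 4838 kept their direction and their side of the threshold, 62 kept the direction but lost the call, and 12 reversed. Of the list counts 2102 of 2254 stayed within 1.5 times, with 68 higher and 84 lower than that, and of the list medians 84 of 1127 moved.

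The reversals were these. Another probe set gave -0.15 for Mpg, -0.18 for Mre11a, -0.01 for Psmd11 and -0.00 for Gja1, which was also the Gja1 probe set with the highest variance. Mgmt, not called, ran from -0.10 to 0.02 over left-out arrays, with 0.02 without MMS replicate 3, 0.01 without it and control replicate 4, and 0.02 without the 4 arrays of the series with intestinal transcripts. Against control at 0 h, Anln was at 0.29, Racgap1 at 0.43, Irs2 at -0.05 and Egr2 at 0.22. The cause was not tested. Cobl lost its call in 14 of 25 alternatives, 13 of them with p-values up to 0.27 and another probe set with 0.93. Akr1c13 lost it in 10 of 23, with p-values up to 0.58, and Dsp in 3 of 25, with p-values up to 0.075, both among others without MMS replicate 3. Nfe2l1 lost its call in a t-test on the arrays at 24 h after adjustment (adjusted p = 0.067). Against control at 0 h Mafg, Nbn and H2-K1 lost theirs (limma, adjusted p = 0.12, 0.48 and 0.21).

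The labels do not say that replicate numbers pair arrays, and same-numbered control and MMS arrays did not deviate together (r = 0.16, 0.10, 0.05 and -0.26 for numbers 1 to 4). With the number as a replicate block, 3393 genes were higher and 2623 lower, 320 and 419 at 2-fold. Of the genes tested, 1355 lay below the limit for low values in both groups at 24 h, and 80 of these were called.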
